A study of Mus musculus with 5 samples.

Results

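The cytokine receptor genes of hematopoietic stem cells (HSCs) described here are Csf1r, Csf2ra, Csf2rb, Csf3r, Il3ra, Il6ra, Il6st, Il7r, Il1r1 and Il11ra1, 10 genes in all. Their members on the array are the probe sets, short sets of oligonucleotides that read 1 transcript, that the platform's annotation gives to exactly 1 of these genes. There were 19 such probe sets for 9 of the genes, out of 45101 probe sets on the array, and 18193 genes had a probe set of their own. No probe set in the annotation used here names Il11ra1, the receptor chain that binds IL-11, so this gene was not analysed here. The series holds 5 Affymetrix mouse arrays of transcript levels, of which 3 read wild-type (WT) and 2 read Atxn1L-null HSCs, all from mice of the C57Bl/6 strain. The sample labels give an age of 6 to 8 weeks and the study's methods 8 weeks. The HSCs were native bone marrow cells that lacked lineage markers, carried c-Kit, Sca-1 and CD150 and pumped out Hoechst dye. The null mice carry a null allele of Atxn1L, and no cell type or promoter restricts it in the sources used here. Cells were pooled for each array, the sources do not say how many mice made a pool, and the RNA passed through 2 rounds of T7 amplification, so p-values measure the spread between these pools, which may be partly technical.

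Cytokine receptors let HSCs and their progeny read the growth factors and inflammatory signals of the marrow. Most of the genes here encode class I cytokine receptors, which have no enzyme of their own and pass the signal to JAK kinases and STAT transcription factors. They work in pairs or larger complexes: a private chain such as the products of Csf2ra, Il3ra, Il6ra or Il11ra1 binds the ligand, and a shared chain, the common β chain from Csf2rb or gp130 from Il6st, signals. Csf3r, the G-CSF receptor, signals as a homodimer. Csf1r, the M-CSF receptor, is a receptor tyrosine kinase, and Il1r1, the IL-1 receptor, signals through MyD88. In blood formation Csf1r and Csf3r are known for macrophages and granulocytes, Il7r for lymphoid progenitors, and gp130 is expressed in many cell types.

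The regulatory sequence just before the start site differed among these genes in its content of CG dinucleotides, the sites of DNA methylation. Promoter windows from RefSeq (build GRCm38.p6) were read here for 10 promoters of 8 of the genes. Those of Il6st and Il6ra, the genes with the highest probe set values here, and of Il7r, which had no bright probe set, are shown to let this difference be seen, as the 250 bases before the start site from 5′ to 3′, with each CG in capitals.
Il6st (chr13:112463820-112464069, plus strand): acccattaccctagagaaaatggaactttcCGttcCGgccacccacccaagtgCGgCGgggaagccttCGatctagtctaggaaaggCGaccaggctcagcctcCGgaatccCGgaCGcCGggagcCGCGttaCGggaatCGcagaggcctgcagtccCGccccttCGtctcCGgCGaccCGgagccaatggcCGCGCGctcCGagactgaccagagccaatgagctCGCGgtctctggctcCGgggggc
Il6ra (chr3:89913197-89913446, minus strand): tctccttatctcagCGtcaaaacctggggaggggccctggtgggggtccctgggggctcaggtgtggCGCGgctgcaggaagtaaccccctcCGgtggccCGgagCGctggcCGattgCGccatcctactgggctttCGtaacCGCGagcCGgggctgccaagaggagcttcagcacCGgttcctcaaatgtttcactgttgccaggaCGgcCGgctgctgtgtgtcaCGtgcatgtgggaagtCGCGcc
Il7r (chr15:9529877-9530126, minus strand): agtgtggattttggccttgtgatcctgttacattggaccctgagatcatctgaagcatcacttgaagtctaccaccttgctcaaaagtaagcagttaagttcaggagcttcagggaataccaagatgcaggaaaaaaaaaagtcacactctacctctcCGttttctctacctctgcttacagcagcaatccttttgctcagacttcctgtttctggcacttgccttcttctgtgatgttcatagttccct
The Il6st window held 26 CG dinucleotides, the Il6ra window 18 and the Il7r window 1. Over 32851 promoters the median was 6, with quartiles of 2 and 16. Among the other genes, the Il3ra window held 27 and that of Csf2ra 17, while Csf3r had 6, the start sites of Il1r1 3 and 7, and those of Il11ra1 4 and 2. The count alone did not separate genes with a bright probe set from those without, since Il3ra read dimly. On either strand, the STAT motif TTCNNNGAA lay in the Il7r window and in none of the other 9, and 7.0% of all promoters held it. The C/EBP motif TTGCNNAA lay in the windows of Il3ra and Il7r and in 1 of the 2 of Il1r1, against 9.6% of all promoters, and did not overlap the STAT motif in Il7r. The PU.1 motif GAGGAAGT, found in 2.4% of all promoters, lay in none of these windows. No window of Csf1r or Csf2rb was read, so neither the motifs nor the CG count are known here for these genes.

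Several facts of the whole series bear on these values. The array medians ran from 3.03 to 3.07 on the log2 scale, and Pearson's r, taken across probe sets and not over independent replicates, was 0.993 to 0.995 within a genotype and 0.989 to 0.994 between genotypes. The Atxn1l transcript was lower in both null pools, at 6.80, 6.69 and 4.98 in the WT pools, against 3.08 and 3.99 for the null pools on 1 of its probe sets. On the Gapdh controls the excess of 3′ over 5′ signal was 5.89 to 6.02 in the WT pools, against 7.33 and 7.21 for the null pools, and the excess for beta-actin was also larger in both null pools. Where in the transcript each receptor probe set lies, the annotation does not tell, and the part of this difference in the results was not tested.

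Of the 19 receptor probe sets, 5 reached a mean of 5 or more in either genotype (26.3%, against 28.7% of all probe sets tested), and each read a different gene: Il6st, Il6ra, Csf1r, Csf2ra and Csf2rb. Csf3r, Il3ra, Il7r and Il1r1 stayed below 5 on every probe set. No receptor probe set differed between the genotypes at the study's criterion, an unadjusted p of at most 0.05 in limma and a fold of at least 1.5, which is 0.585 on the log2 scale. The count was 0 higher and 0 lower, where 1.13% of the 45037 probe sets tested were called higher and 1.25% lower. None had an unadjusted p of at most 0.05, which 5.59% of all probe sets had, and none reached the fold alone, which 5.08% did. Every receptor probe set had an adjusted p of 1 after Benjamini-Hochberg correction in limma, and 1 of all probe sets was under 0.05 (0.00222%). An exact test of 3 pools against 2 cannot give a p below 0.1, so a difference under the criterion is not shown to be absent. The differences, null minus WT, ran from -0.25 to 0.42 with a median of -0.0047, beside a median of -0.0025 over all probe sets. Since whole pools of cells were read, fewer cells with a transcript and less of it per cell cannot be told apart.

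**Figure D1:**
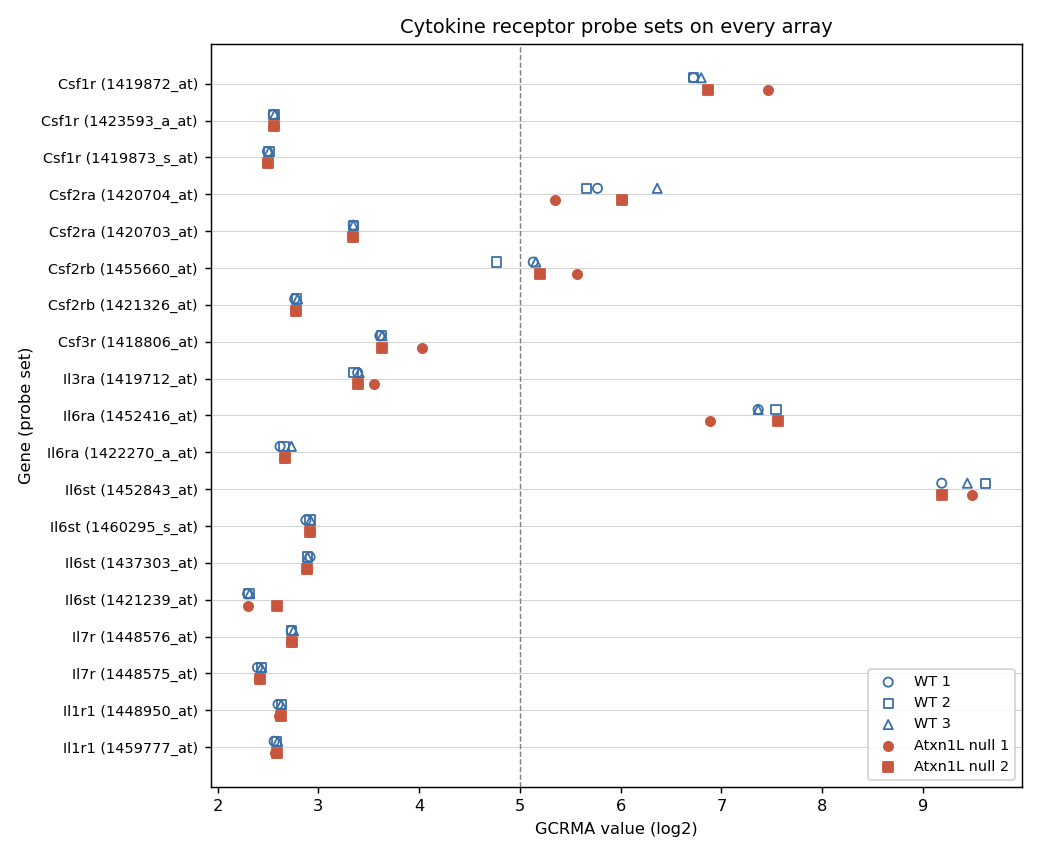
GCRMA values (log2, horizontal axis) of all 19 cytokine receptor probe sets (vertical axis), open symbols for the 3 WT arrays and filled symbols for the 2 Atxn1L null arrays, with a dashed line at 5. The 5 probe sets with a mean of 5 or more read Csf1r, Csf2ra, Csf2rb, Il6ra and Il6st. That of Csf2rb lies left of the line on the second WT array. Most of the other probe sets lie between 2 and 3 on every array.

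Of the bright receptor probe sets, that of Il6st differed least between the genotypes. Il6st, whose product is the signaling chain shared by the receptors for IL-6, IL-11 and LIF, read 9.19, 9.62 and 9.44 in the WT pools, against 9.49 and 9.19 for the null pools on probe set 1452843_at. The genotypes overlapped completely, since both null values lay within the WT range. The mean was 9.42 ± 0.22 (SD, n = 3) for WT and 9.34 ± 0.21 (SD, n = 2) for null pools, a difference of -0.07 with a 95% interval of -0.58 to 0.43. A 1.5-fold change lay outside this interval, just outside for a fall and farther outside for a rise. The remaining probe sets of Il6st were dim, at 2.30 to 2.92, and did not read this signal. Il6ra, the chain that binds IL-6, read 7.37, 7.54 and 7.37 in the WT pools, against 6.88 and 7.56 for the null pools on probe set 1452416_at. The first null pool gave the lowest value of the 5 and the second the highest, so the null pools spanned the WT pools. The mean was 7.42 ± 0.10 (SD, n = 3) for WT and 7.22 ± 0.48 (SD, n = 2) for null pools, and the difference of -0.20 had a 95% interval of -0.87 to 0.47. The other probe set of Il6ra read 2.62 to 2.73 on all arrays.

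The receptors of the common β chain, which serve GM-CSF, IL-3 and IL-5, showed signal for both chains of the GM-CSF receptor. They showed little for the chain that binds IL-3. Csf2rb, the common β chain, read 5.13, 4.77 and 5.16 in the WT pools, against 5.57 and 5.20 for the null pools on probe set 1455660_at. Both null values lay above all WT values, the second by a small margin. The mean was 5.02 ± 0.22 (SD, n = 3) for WT and 5.39 ± 0.26 (SD, n = 2) for null pools, a 1.29-fold difference (log2 difference 0.37, 95% interval -0.17 to 0.91) that did not pass. Its other probe set read 2.76 to 2.79. Csf2ra, the chain that binds GM-CSF, read 5.77, 5.66 and 6.36 in the WT pools, against 5.35 and 6.01 for the null pools on probe set 1420704_at. The first null pool was the lowest and the third WT pool the highest, and the genotypes overlapped. The difference of -0.25 had the widest interval of the receptors, -1.20 to 0.70. The other probe set of Csf2ra read 3.34 to 3.35.

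Il3ra, the chain that binds IL-3, has a single probe set here, which read 3.39, 3.35 and 3.41 in the WT pools, against 3.56 and 3.39 for the null pools. The first null pool was the highest and the second lay within the WT range, so the difference of 0.09 (95% interval -0.07 to 0.26) came from 1 pool. Mice carry a second β chain gene, Csf2rb2, whose product serves IL-3 and whose sequence is close to that of Csf2rb. Its own probe set read 5.77, 5.28 and 6.15 in the WT pools, against 5.06 and 5.76 for the null pools, overlapping, with a difference of -0.32 (95% interval -1.38 to 0.74). A probe set that the annotation gives to both genes read 1.81 to 1.83 on every array. Because the genes are so similar, the probe sets named for 1 of them may share signal, which these values cannot separate.

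Csf1r showed the largest difference among the receptors, also short of the criterion. On probe set 1419872_at it read 6.72, 6.72 and 6.80 in the WT pools, against 7.46 and 6.87 for the null pools. The WT pools were tightly grouped, with both null values above them, yet the second null pool exceeded the highest WT pool only slightly. The mean was 6.75 ± 0.04 (SD, n = 3) for WT and 7.17 ± 0.42 (SD, n = 2) for null pools, a 1.33-fold difference (log2 difference 0.42, standard error 0.20, 95% interval -0.15 to 0.98). The remaining probe sets of Csf1r read 2.50 to 2.57 on all arrays and showed no such difference, so the signal for this gene rests on 1 of 3 probe sets. Csf3r was dim, at 3.61, 3.63 and 3.63 in the WT pools, against 4.03 and 3.63 for the null pools on its only probe set. Here again only the first null pool stood above the others, and the second matched the highest WT pool. The difference was 0.21 (95% interval -0.17 to 0.58).

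Il7r, the receptor chain for IL-7 and TSLP, and Il1r1 read near the floor of the scale. The probe sets of Il7r read 2.40 to 2.43 and 2.73 to 2.75, and those of Il1r1 2.60 to 2.63 and 2.56 to 2.60, in both genotypes alike. In all, 11 of the 19 receptor probe sets (57.9%) stayed under 3 on every array, as did 46.0% of all probe sets. The table holds no detection call, so a value at this level does not say whether the transcript was absent, and a narrow interval there reflects the floor and not a precise measurement of the gene.

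**Figure D2:**
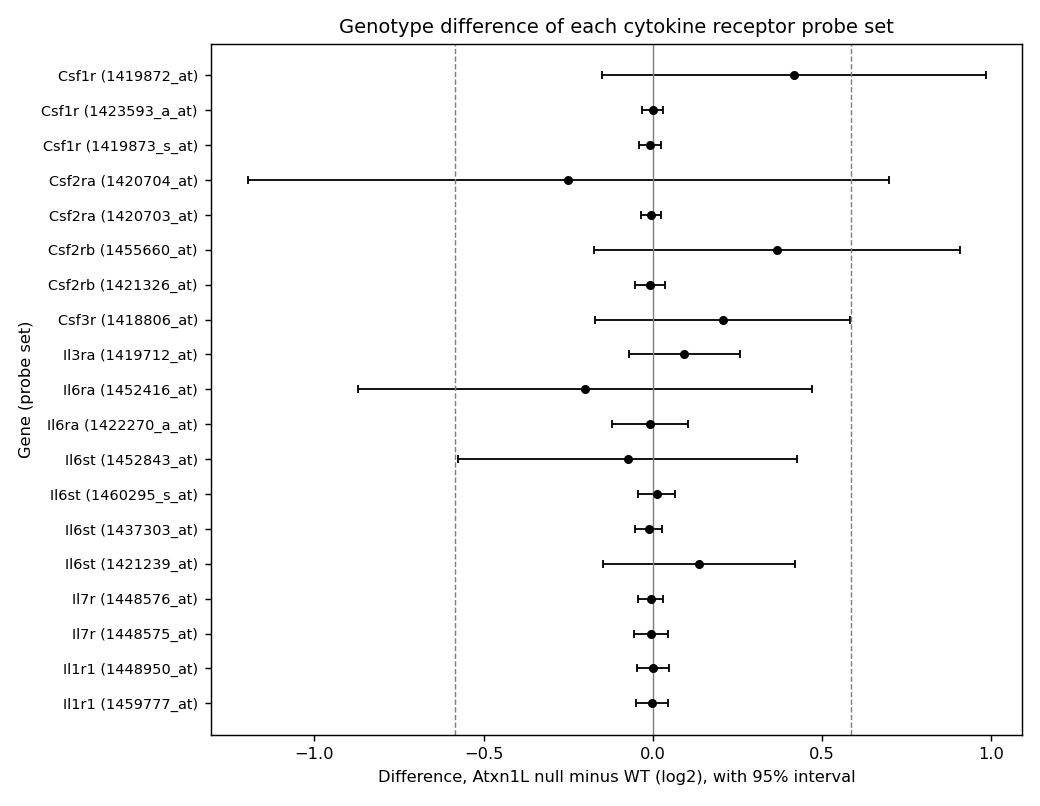
Difference of each cytokine receptor probe set, Atxn1L null minus WT (log2, horizontal axis), as a point with its 95% interval from limma, with dashed lines at a 1.5-fold change. Every interval includes 0, and those of Csf1r, Csf2rb, Csf2ra and Il6ra are the widest, while probe sets near the floor have intervals too narrow to read as evidence on the gene.

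Among the bright receptor probe sets, those of Csf1r and Csf2rb had no overlap between genotypes, 2 of 5, where this held for 33.0% of all 12936 probe sets with a mean of 5 or more. Of all 19 receptor probe sets the same 2 had no overlap, against 14.2% of all probe sets. None of the 5 bright ones was called, where 7.44% of all bright probe sets were, and none had an unadjusted p of at most 0.05, which 16.0% had. The within-genotype SD of the 5 ran from 0.216 for Il6st to 0.409 for Csf2ra, around the median of 0.226 over all bright probe sets.

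The first null pool was the highest or lowest array in 4 of the 5 bright receptor probe sets, all but that of Il6st. It gave the highest value of Csf1r and Csf2rb, and of the dim Csf3r and Il3ra, and the lowest of Csf2ra and Il6ra. Over all bright probe sets it was the highest or lowest array in 51.9%, and the lowest such share of any array was 25.3%. Without it, the difference of Csf1r was 0.12, that of Csf2rb 0.18, and those of Csf2ra and Il6ra were 0.08 and 0.14, both with their sign turned. Without the second null pool instead, the difference of Csf1r was 0.71 and passed the criterion, while that of Il6ra was -0.54 and that of Csf2ra -0.58, neither passing, with a single null pool whose spread is taken to be that of the WT pools. The dim Csf3r differed by 0.40 in that fit, under the fold, with a limma adjusted p of 0.0429, the only receptor value under 0.05 after adjustment in any setting tried. Without the first null pool its difference was 0.0077. No receptor call was made without any 1 of the WT pools.

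**Figure D3:**
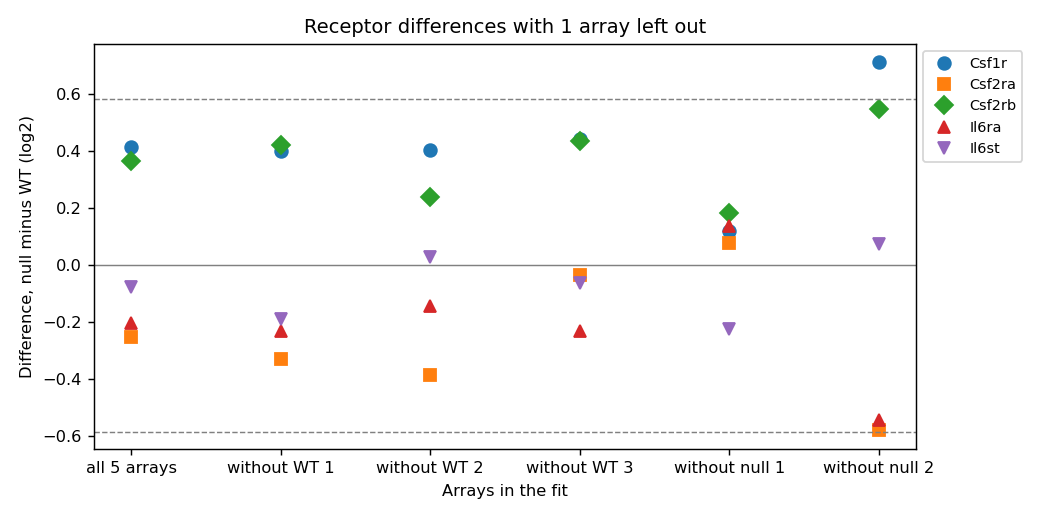
Difference, Atxn1L null minus WT (log2, vertical axis), of the 5 bright receptor probe sets with all 5 arrays and with each array left out in turn (horizontal axis), with dashed lines at a 1.5-fold change. The differences lie closer to 0 for Csf1r, Csf2rb, Csf2ra and Il6ra without the first null array and farther from 0 without the second.

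Few other genes of the pathway passed the criterion. Of 41 measured further cytokine receptor genes none was called, and 12 averaged 5 or more on their brightest probe set. The brightest, Crlf2, a receptor for TSLP that pairs with the product of Il7r, read 14.13, 13.86 and 14.11 in the WT pools, against 13.58 and 13.74 for the null pools. Both null values lay below all WT values, and the difference of -0.37 (limma adjusted p = 0.797) was under the required fold. Il17ra, the common chain of the IL-17 receptors, read 8.81 to 10.58 in the WT and 9.44 and 10.07 for the null pools. Kit, Flt3, Ifngr2 and Ghr were named after the values were seen. As means of WT and null pools, the stem cell factor receptor Kit read 8.26 and 8.00 on its brighter probe set. Flt3, the receptor of multipotent progenitors, read 5.81 and 5.74. Ifngr2, a chain of the interferon γ receptor, read 5.99, 4.92 and 4.44 in the WT pools, against 3.92 and 2.65 for the null pools, a difference of -1.83 with an interval of -3.75 to 0.09. It reached the fold but not the p, and its other probe set read 3.36 in both genotypes. Ghr, the growth hormone receptor, also reached the fold but not the p, in the other direction. Its brightest probe set read 4.84, 6.10 and 4.98 in the WT pools, against 5.68 and 6.98 for the null pools. The genotypes overlapped, and the difference of 1.03 had an interval of -0.77 to 2.82. The remaining probe sets of Ghr were dim and showed no such rise. As means of WT and null pools, they read 3.63 and 3.53, and 2.37 and 2.37.

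**Figure D4:**
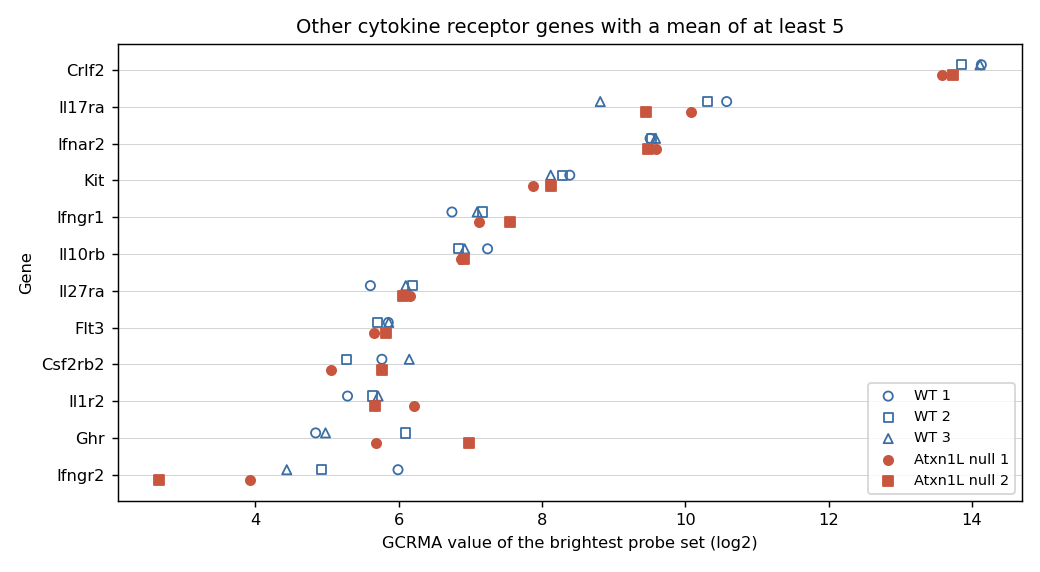
GCRMA values (log2, horizontal axis) of the brightest probe set of the 12 further cytokine receptor genes with a mean of 5 or more (vertical axis), open symbols for the 3 WT arrays and filled symbols for the 2 Atxn1L null arrays. Crlf2 and Ifngr2 show no overlap between the genotypes, and neither passed the criterion.

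Of 17 ligands, 10 stayed under 3 on every probe set and array, among them Csf2, Csf3, Il3 and Il6, the ligands of receptors above. Among the ligands only Ctf1 was called, as lower in null pools. This gene encodes cardiotrophin, a cytokine that signals through gp130. It read 5.76, 5.84 and 5.43 in the WT pools, against 4.79 and 5.10 for the null pools, a difference of -0.73 (standard error 0.18, limma adjusted p = 0.648). Its call ended without the first WT pool and without the first null pool. Clcf1, the brightest ligand gene and another cytokine of the gp130 family, named after its values were seen, read 8.72 in WT and 8.24 in null pools and did not pass. Its second bright probe set read 8.07, 7.40 and 7.99 on the WT and 6.44 and 7.40 on the null arrays, a difference of -0.89 with an interval of -2.04 to 0.25 that reached the fold but not the p. Of 31 genes that carry or restrain the signal none was called. The STAT5 target and feedback inhibitor Cish read 12.05 and 12.07, and Socs7 11.55 and 11.24, as means of WT and null pools.

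Of 11 transcription factors known for the control of myeloid or lymphoid receptor genes, 1 was called, as higher in null pools. Ikzf1, which encodes Ikaros, a regulator of lymphoid development, read 6.69, 6.44 and 6.79 in the WT pools, against 7.62 and 7.10 for the null pools, a difference of 0.72 (standard error 0.21, limma adjusted p = 0.764) on 1 of 2 probe sets. Its call ended without any 1 of the arrays but the second null array. Over these 4 lists, 100 genes were measured, 1 was higher (1.00%) and 1 lower (1.00%), where 2.30% and 2.21% of all genes had a probe set called in that direction. The brightest probe sets of the 4 lists had median differences of -0.0044 for receptors, -0.0061 for ligands, 0.02 for signal carriers and 0.01 for transcription factors.

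Markers of the cell types in which these receptors are best known were also read, since some of the receptors could mark such cells. HSC markers gave signal, with 11 of 13 measured genes at a mean of 5 or more, none called, and a median difference of -0.147 over their brightest probe sets. Their summed level, as log2 of the sum of linear values, was 14.17, 14.32 and 14.28 for WT and 13.97 and 14.09 for null pools, without overlap and with no test. This sum is mostly Procr. Below 5 on the brightest probe set were Slamf1, which encodes CD150, at 3.92 and 3.89, and Esam, at 4.47 and 4.52. These are means of WT and null pools. On their brightest probe sets Mllt3, Fgd5, Tek, Ctnnal1 and Esam were higher in null pools, by 0.58, 0.30, 0.23, 0.06 and 0.05. All other genes of the list were lower. Procr read 13.57 and 13.39, and Meis1 11.85 and 11.40 on its brightest probe set but 9.67 and 10.16, with the sign turned, on the next. Granulocyte markers were also bright, 10 of 13, with Camp at 13.42 and 13.29 and S100a8 at 13.42 and 13.65, while Itgam and Mmp8 stayed under 3. The summed level of the granulocyte list was 14.90, 15.11 and 15.75 in the WT pools, against 15.72 and 15.00 for the null pools. That of the 12 monocyte and macrophage genes was 10.73, 10.96 and 11.33 in the WT pools, against 11.42 and 10.43 for the null pools, with Lyz2 and C1qb the brightest and Fcgr1 and Ms4a7 under 3. In both lists the third WT pool and the first null pool had the 2 highest sums. The first null pool also had the highest Csf1r and Csf3r, but the third WT pool read close to the other WT pools. Csf1r and Csf3r were 6.80 and 3.63 there, beside 6.72 and 3.63 in the second WT pool. The monocyte and macrophage sum is mostly Lyz2, a gene that granulocytes also express, at 11.13 in the third WT and 11.22 in the first null pool. Other genes of that list had another order: C1qa was highest in the first WT pool (6.28, against 5.16 in the third), and Irf8 was lowest in the first null pool and highest in the second (6.50). The part of such cells in these values was not tested.

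Of 11 B and early lymphoid genes, 5 stayed under 3, Pax5 and Rag1 among them, as did 5 of 9 T and NK cell genes, all 3 measured CD3 chains included, and 5 of 12 endothelial and stromal genes, with Cdh5 among them. The summed levels were 8.16 to 9.35 in WT and 8.83 to 9.21 in null pools for the B lineage, 7.29 to 7.93 and 7.40 to 8.21 for T and NK cells, and 9.72 to 10.08 and 10.04 to 10.31 for endothelial and stromal genes. The brightest genes of these lists were Vpreb1 (8.09 in WT and 8.43 in null pools) and Cd79b (6.24 and 6.44), Nkg7 (7.23 and 7.38) and Gata3 (3.64 and 3.76), and Vcam1 (8.93 and 8.94) and Pdgfrb (7.51 and 8.32), none of them called.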

How the data were processed

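RNA of pooled HSCs from 3 WT and 2 Atxn1L null samples was hybridised to Affymetrix MOE430.2 arrays. The deposited table holds log2 values that the authors made with GCRMA, which corrects background by probe sequence, applies quantile normalization and summarizes each probe set. No GCRMA version is given, and the log2 scale was inferred from how far the values reach. All 5 columns were mapped from the sample titles, and 0 were left out.

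After 64 Affymetrix controls were left out, limma 3.58.1 (lmFit, eBayes; R 4.3.3) fitted the genotype means on all 45037 other probe sets, with 3 residual and 0.771 prior degrees of freedom. A call needed a 1.5-fold or larger difference and an unadjusted p no higher than 0.05, and a gene was called if any probe set of it alone was called. Benjamini-Hochberg adjustment ran over all probe sets tested. Genes came from the platform annotation: 34945 probe sets had 1 gene, 932 several and 9160 none. The fit was tested on simulated data. The receptors and the other lists were chosen with earlier results of these data known. Named were every receptor probe set and, of each other list, the genes called or else the 2 brightest, with exceptions marked. The number of arrays limits the precision. Promoter windows came from RefSeq.

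As alternatives, the fit was repeated with a variance trend, with array weights, after quantile normalization once more or median centring, without dim or without cross-hybridizing probe sets, on gene means, with other criteria, with a replicate block and without each array.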

Additional observations from a re-analysis of the deposited data

How the results depend on the processing

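Of 210 values of receptor probe sets under the alternatives, 208 stayed short of the criterion, as with all arrays. The 2 that passed it were Csf2rb with array weights (0.62, limma adjusted p = 0.26), a fit whose weights stopped before convergence, and Csf1r without the second null array (0.71, limma adjusted p = 0.0629). In 5 further values the unadjusted p met the criterion and the fold did not: Csf2rb with the replicate block, a dim probe set of Il6st without the first null array, and Csf3r, Il3ra and Il6ra without the second. The count of receptor probe sets called higher was accordingly 1 with array weights and otherwise 0, and 0 to 1 with 1 array left out, while none was called lower. The median difference of the receptor probe sets was -0.074 without dim probe sets and 0.015 with gene means, and ran from -0.0107 to 0.0054 with 1 array left out, so its sign is not settled.

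Pathway genes called numbered 2 higher and 3 lower with a variance trend, without dim probe sets and with the replicate block, 3 and 3 with array weights, 0 and 1 with gene means, 4 and 2 by p alone, 3 and 7 by fold alone, and 0 and 0 at an adjusted p under 0.05. With 1 array left out they ran from 0 to 3 higher and 1 to 6 lower. Over all probe sets, where 510 were higher and 564 lower, the counts were 694 and 911 with array weights, 115 and 142 with gene means, 1442 and 1075 by p alone, 924 and 1362 by fold alone, 0 and 1 at an adjusted p, 290 and 472 with the block, 350 and 359 without the first WT array, and 1128 and 820 without the second null array. The criteria and the smaller number of gene means change these counts by construction, and the cause of the other changes was not tested. Same-numbered WT and null arrays deviated from their group means with correlations of -0.05 and -0.30. With 2 null arrays, their deviations are equal and opposite, so the crossed pairs gave the same values with the sign turned. These were 0.05 for the first WT with the second null array and 0.30 for the second WT with the first null array. The correlations therefore cannot decide whether the numbers pair the pools, and the main fit used no pairing. With the replicate number as a block, which leaves 1 residual degree of freedom, Csf2rb differed by 0.44 (limma adjusted p = 0.563), which met the unadjusted p of the criterion but not its fold.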
